A study of Arabidopsis thaliana with 12 samples.

Results

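In seedlings of the Arabidopsis thaliana line QK, 35 genes had higher RNA levels after heat, while the wild types Ws and Col-0 had no such increase and in some genes a lower level. They were chosen from the measured values themselves. The heat change of a gene was the difference in log2(signal + 16) between the heated and the control array of 1 replicate pair. A member had a heat change of at least 1, which is 2-fold in the signal plus 16, in both QK pairs, and a heat change under 0.5 in both Ws pairs and in Col-0 replicate pair 1. Among 18465 probe sets 66 met these numbers. Of these, 38 were paired with exactly 1 gene, 27 had no listed gene and 1 had several. GH3.3, WRKY53 and UGT76B1 were set aside by name, which left the 35 members. They were 0.34% of the 10304 probe sets with exactly 1 gene that remained after the exclusions. These took out heat shock protein genes, other named genes and the organelle-genome genes that were recognised. Some genes with mitochondrial symbols stayed in the 10304 and in the shares over all of them. An example was nad6, with QK changes of 5.87 and 6.05. As genes, the members were 35 of 10271 with a single-gene probe set before the exclusions. Their heat changes therefore describe the choice, and counts of members called on those contrasts are given below without being read as support. Of the members 8 carry a gene symbol, and the other 27 are named here by their locus. A change of at least 1 in both QK pairs, whatever the wild types did, was found in 111 of the 10304 probe sets, nad6 among them.

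RNA came from seedlings aged 7 days, raised at 22 °C on MS medium at 0.5 strength with 1% sucrose. The 6 groups were Col-0, Ws and QK, each taken either untreated at 22 °C (control) or following 1 h of exposure to 37 °C (heat). Every group had 2 biological replicates, which gave 12 Affymetrix arrays. Col-0 and Ws are natural accessions used as wild types. QK, according to published work, lacks all class A1 heat shock factors through mutant alleles taken from both Col-0 and Ws, and the series holds 1 such line. The labels name no further allele or agent. Levels of those factor genes are not analysed here. Seedlings hold many cell types, so that a change in the number of cells of a type and a change in RNA per cell cannot be told apart.

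The class A1 heat shock factors are transcription factors held inactive by chaperones in unstressed cells. When proteins unfold they are released, bind heat shock elements and switch on chaperone genes and further heat shock factors. Heat also reaches genes by other routes, among them the unfolded protein response of the endoplasmic reticulum and hormone and calcium signals. Growth of the plant cell wall is set by enzymes that cut and rejoin xyloglucan (XTH proteins) and by expansins, which loosen the contacts between wall polymers.

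Array medians were between 75.6 and 87.3 signal units, and precision is limited by 2 arrays per group. The pair labelled Col-0 replicate 2 stood against its treatment labels. All 5 measured genes of a heat-induced check list were brighter in the array labelled control than in the array labelled heat of that pair, whereas all 5 were brighter in the heated array of Col-0 replicate 1 and of both Ws pairs. The choice of members did not use that pair, and its values are given below as labelled. The 5 listed leaf markers are not analysed here. The 3 measured root markers of 5 summed to between 6526.4 and 9244.0 in the QK control arrays, 4609.1 and 5067.0 in the heated QK arrays, 4337.0 and 5237.1 in the Ws control arrays and 1529.8 and 1834.6 in the heated Ws arrays. In the arrays labelled Col-0 the sums were between 2937.0 and 7962.4 at control and between 3743.5 and 6351.5 at heat. PYK10, a root glucosidase, made up most of the sum in QK and Ws, and JAL33 did not move with it, as given below. The part of these markers in the members' values was not tested.

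**Figure D1:**
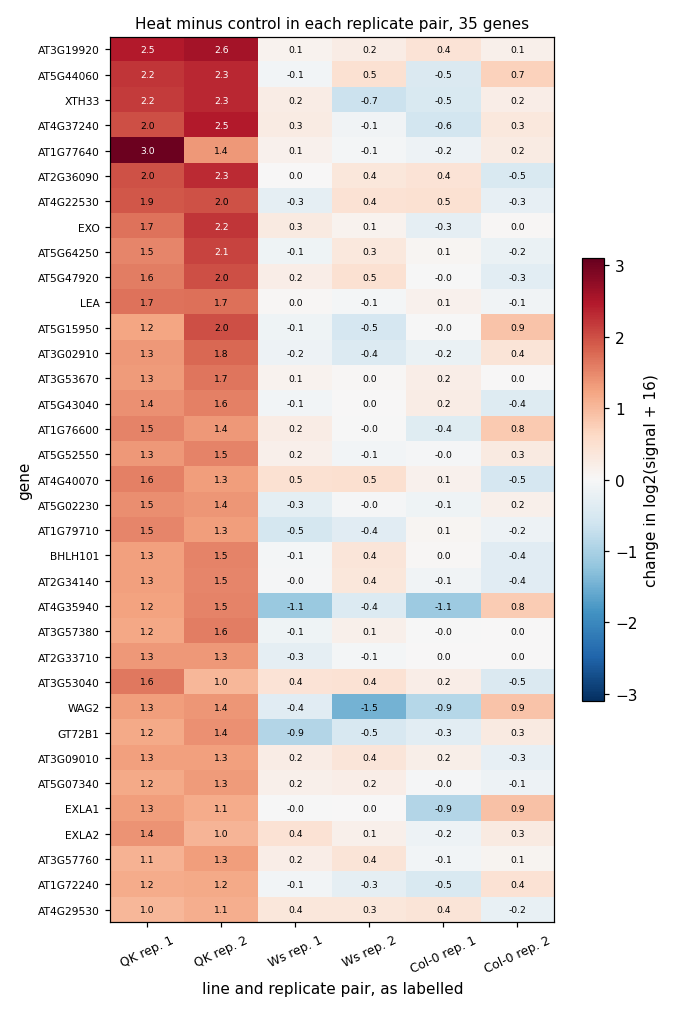
Heat change of the 35 members (rows, by mean QK change) in the 6 replicate pairs (columns, as labelled), with colour and numbers in log2(signal + 16). The QK columns are at 1.02 or more throughout, the Ws and Col-0 replicate 1 columns are under 0.5, and AT4G35940 and WAG2 have the lowest values there.

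The mean heat change of a member in QK lay between 1.07 and 2.52, with a median of 1.42, or 2.68-fold. It was at least 2 in 6 members, between 1.5 and 2 in 8 and under 1.5 in 21. The median gap between the QK pairs was 0.24, and the widest was 1.68. Over all 10304 single-gene probe sets the median heat change was -0.0043 in QK replicate 1 and 0.02 in QK replicate 2. In the wild types 27 of the 35 members stayed within 0.5 in either direction in all 3 pairs used, and the other 8 were lower by 0.5 or more in the heated array of at least 1 pair. The rule itself set the upper limit. In Ws replicates 1 and 2 and Col-0 replicate 1, 3, 3 and 4 members were at -0.5 or less. Over all 10304 probe sets 1353, 1283 and 1500 were, which are larger shares than among the members.

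XTH33, a xyloglucan endotransglycosylase of the cell wall (AT1G10550), was among the members with the highest change. Its signal was 126.9 and 137.8 in the QK control arrays and 621.2 and 756.7 after heat, for replicates 1 and 2. Ws had 103.2 and 203.1 at control and 124.2 and 122.4 after heat. Col-0 had 110.8 and 68.8 in the arrays labelled control and 76.1 and 82.5 in those labelled heat. Both heated QK arrays were thus brighter than every other array, and the QK control arrays lay inside the wild-type range. The mean heat change in QK was 2.24, against 0.23 and -0.66 in the Ws pairs and -0.46 in Col-0 replicate 1.

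EXO (EXORDIUM), a brassinosteroid-responsive protein that takes part in cell expansion, was the brightest member (AT4G08950). QK had 1799.4 and 1462.7 at control and 5791.5 and 6832.7 after heat. Ws had 1597.5 and 2994.3 at control and 1953.2 and 3233.2 after heat, and Col-0 lay between 1833.6 and 2491.0 in all 4 arrays. At control QK was in the lower part of the wild-type values or under them, and after heat it was above all of them. The mean heat change in QK was 1.94, with 0.53 between the pairs.

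The expansin-like genes EXLA1 (AT3G45970) and EXLA2 (AT4G38400), related in sequence to expansins, had smaller changes of 1.23 and 1.22. EXLA1 was at 818.6 and 721.0 in control QK and at 2048.3 and 1615.3 in heated QK. In Ws it had 435.2 and 433.2 in the replicate 1 arrays and 140.5 and 141.1 in the replicate 2 arrays, control first. The Col-0 arrays gave 1137.1 and 597.4 in replicate 1, and 72.1 and 148.4 in replicate 2, control label first. EXLA1 thus differed between replicates of a wild type by more than heat moved it in Ws, and the QK arrays did not show that gap. EXLA2 was at 92.2 and 191.4 in control QK, at 268.4 and 413.0 in heated QK, and between 66.3 and 98.9 in the 8 wild-type arrays.

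Other members of these cell wall families set the range around them. Of 9 XTH genes with a single-gene probe set, limma called 2 raised and 0 lowered by heat in QK in the fit to 10 arrays without the pair labelled Col-0 replicate 2, where 1.17% of all 13631 tested probe sets were called raised. The fit to 12 arrays also called 2 of the 9, of which 7 passed the filter and were tested. Over all tested probe sets 0.249% were called raised there. The raised ones were XTH33, which the rule chose on this contrast, and XTH16, another xyloglucan enzyme, which went from 505.5 and 379.1 to 2062.3 and 1547.4 in QK (log2 change 1.99, SE 0.26, limma adjusted p = 0.0178). The change of XTH16 in Ws replicate 1 was 0.69, above the limit of the rule. The median QK change of the 9 was -0.08. XTH18 had 1.02 and 0.66 in QK, -0.68 and -0.03 in Ws and -0.95 in Col-0 replicate 1, and limma did not call it. XTH19 had -1.78 and -1.35 in QK and -1.81 and -1.12 in Ws. Over 15 expansin and expansin-like genes, a family added after the values were seen, the median change was -0.35 in QK and -0.47 in Ws, and limma called 0 of the 12 that were tested in either fit. EXLA1 and EXLA2 were the 2 with the highest mean QK change among the 15.

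**Figure D2:**
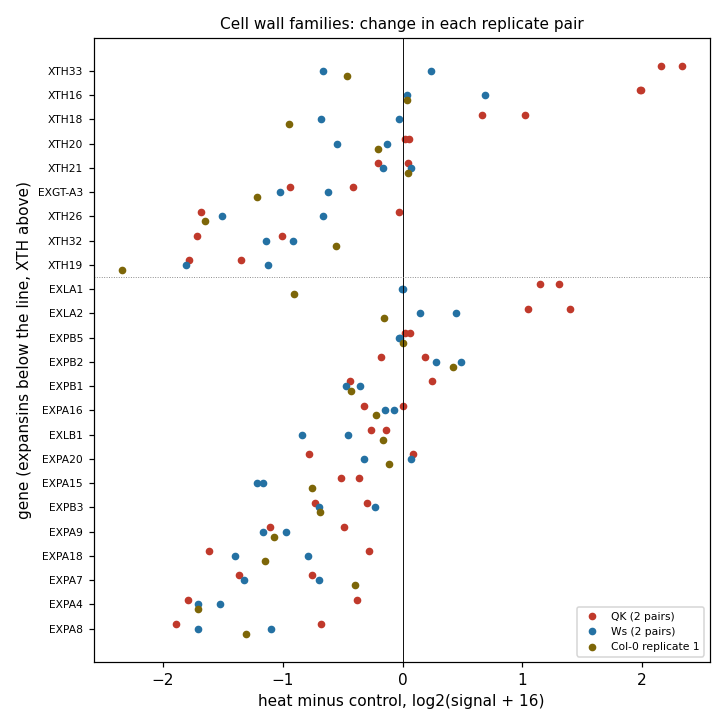
Heat change, in log2(signal + 16), of 9 XTH genes (above the dotted line) and 15 expansins (below) in the QK, Ws and Col-0 replicate 1 pairs, 1 point per pair. XTH33, XTH16, EXLA1, EXLA2 and, less far, XTH18 lie to the right in QK, while most other genes lie at or under 0 in all lines.

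Among the members with other known roles, LEA (AT2G21490), a dehydrin of the late embryogenesis abundant proteins that protect drying seeds, started from a raised level in QK. It had 25.8 and 68.0 in control QK and 118.6 and 259.5 in heated QK. The 8 wild-type arrays lay between 8.3 and 11.5. All QK arrays were therefore brighter than all wild-type arrays, heated or not. The heat changes were 1.69 and 1.71 in the QK pairs and at most 0.13 in the wild-type pairs used. At such low signals the size of a change depends on the 16 added. LEA18, the single seed marker of 5 with a probe set, was at 387.5 and 1030.1 in the QK control arrays and between 8.9 and 41.6 in the wild-type arrays, and its part in the values of LEA was not tested.

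WAG2, an AGC kinase that helps to place auxin carriers in the membrane (AT3G14370), had lower signals in the heated arrays of the wild types. QK had 65.5 and 60.3 at control and 183.6 and 180.9 after heat, while Ws went from 61.2 and 184.8 to 44.2 and 56.6. Col-0 replicate 1 went from 79.1 to 35.2, and the arrays labelled Col-0 replicate 2 had 48.2 at control and 103.0 at heat. The heated QK arrays were no brighter than Ws control replicate 2. Its heat change was 1.33 in QK on average and -0.36, -1.47 and -0.89 in the wild-type pairs used.

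GT72B1, a glucosyltransferase that joins sugar to lignin precursors and foreign phenols (AT4G01070), was also lower in the heated Ws arrays. It was at 199.6 and 295.2 in control QK and 468.6 and 821.2 in heated QK. Ws had 199.1 and 199.3 at control and 98.4 and 136.4 after heat, and Col-0 lay between 135.9 and 241.9. The mean QK change of 1.30 stood against -0.91 and -0.50 in the Ws pairs. Of 5 measured genes in the UGT72 group, a family added after the values were seen, GT72B1 had the highest mean change in QK, followed by UGT72E2 with 1.02. UGT72E1, UGT72E3 and UGT72B3 had 0.12, 0.08 and -0.43. The median of the 5 was 0.12, and limma called 0 of the 4 that were tested in either fit.

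BHLH101, a transcription factor induced by iron shortage (AT5G04150), varied more between replicates than between treatments. QK had 12.7 at control and 53.4 after heat in replicate 1, and 107.9 and 341.9 in replicate 2. Ws had 8.7 and 7.6 in replicate 1 and 152.2 and 202.7 in replicate 2, and Col-0 had 7.5 and 8.3 in replicate 1. The arrays labelled Col-0 replicate 2 had 127.5 at control and 95.8 at heat. Every replicate 2 array was brighter than every replicate 1 array, in all 3 lines, while the change within the QK pairs was 1.27 and 1.53. AT5G15950 was also brighter in replicate 2 than in replicate 1 of every group, with 99.2 and 250.9 in QK replicate 1 and 527.8 and 2141.8 in replicate 2, control first. Its wild-type arrays lay between 47.0 and 99.0 in replicate 1 and between 145.9 and 460.7 in replicate 2.

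**Figure D3:**
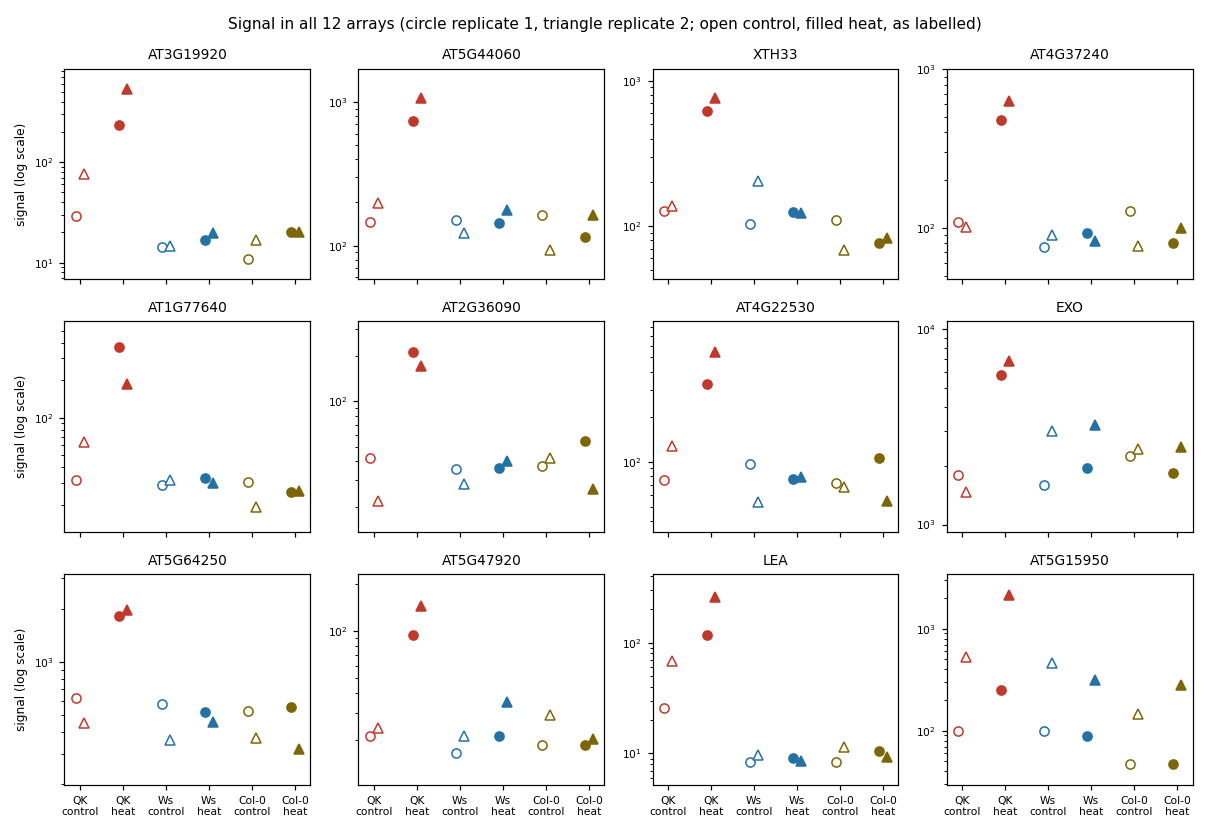
Signal (log axis) of the 12 members with the highest mean QK change in all 12 arrays, 1 point per array, circles for replicate 1 and triangles for replicate 2, open for control and filled for heat as labelled. In 11 of the 12 both heated QK arrays lie above the rest, and in AT5G15950 the replicates lie apart.

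The gene with the highest mean change was AT3G19920. It had 29.2 and 76.3 in control QK, 233.4 and 532.6 in heated QK, and between 10.9 and 20.2 in the 8 wild-type arrays. QK lay above the wild types at both temperatures, and the heat changes were 2.46 and 2.57. AT5G44060 differed from it in its start. The control arrays of QK, with 146.5 and 199.1, overlapped the wild-type range of 93.1 to 176.2, and heat took QK to 740.9 and 1070.3.

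AT4G37240 was at 108.7 and 100.9 in control QK, inside the wild-type range of 75.7 to 126.8, and at 479.0 and 631.6 after heat. AT1G77640 had the widest gap between replicates. It went from 31.5 to 372.2 in QK replicate 1 and from 63.9 to 188.3 in replicate 2, a change of 3.03 and 1.35, with 19.2 to 32.9 in the wild types. AT2G36090 went from 41.7 and 21.6 to 212.2 and 170.7, with 26.1 to 54.9 in the wild types. In each of these 3 genes both heated QK arrays were brighter than all other arrays.

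AT4G22530 went from 75.3 and 126.7 to 329.9 and 544.7 in QK, and 53.8 to 105.9 covered the wild types. AT5G64250 was at 624.8 and 450.9 in control QK and at 1820.1 and 1978.0 in heated QK, with 317.7 to 574.6 in the wild types. AT5G47920 was dim, with 21.2 and 24.1 at control and 94.8 and 144.4 after heat in QK and 16.6 to 35.2 in the wild types. The order of the groups was the same in all 3, with heated QK on top and control QK within or just over the wild-type range.

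The other 18 members known by locus had mean QK changes between 1.07 and 1.56 and mean heated signals between 65.6 and 965.55. From the highest change to the lowest they were AT3G02910, AT3G53670, AT5G43040, AT1G76600, AT5G52550, AT4G40070, AT5G02230, AT1G79710, AT2G34140, AT4G35940, AT3G57380, AT2G33710, AT3G53040, AT3G09010, AT5G07340, AT3G57760, AT1G72240 and AT4G29530. AT4G35940 was at 138.8 and 106.7 in control QK and at 349.8 and 340.0 in heated QK, while Ws went from 149.2 and 80.0 to 58.8 and 56.0 and Col-0 replicate 1 from 117.5 to 44.7. AT3G53040 was at 102.1 and 460.0 in control QK, at 352.2 and 959.2 in heated QK and between 16.2 and 51.1 in the wild types. QK control replicate 2 was brighter than QK heat replicate 1 in that gene, so the treatment groups overlapped in QK.

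Of 31 listed genes for folding proteins in the endoplasmic reticulum, 7 had a single-gene probe set. In the 10-array fit limma called 3 of the 7 raised and 0 lowered by heat in QK, beside 1.17% of all tested probe sets called raised, and in the 12-array fit 2 of the 7, beside 0.249%. AT5G07340, the member among them, was at 140.9 and 97.7 in control QK and at 337.8 and 268.3 in heated QK. Ws had 174.1 and 87.4 at control and 196.4 and 102.6 after heat. Its mean QK change of 1.25 was the smallest of the 4 listed genes with a mean change of at least 1, and limma did not call it. CRT1b, an endoplasmic reticulum calreticulin set aside by name, also missed the wild-type limit, with 0.51 in Ws replicate 1 and 2.76 on average in QK. The unfolded protein response factors BZIP28, BZIP60 and BZIP17 had mean QK changes of 0.12, 0.12 and -0.12.

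AT4G29530, the member with the smallest change, lies beside AT4G29520 in the gene order of TAIR10.1. AT4G29520 is on the endoplasmic reticulum list and went from 76.1 and 117.2 to 810.3 and 1048.0 in QK, a log2 change of 3.08 (SE 0.25, limma adjusted p = 0.00392 in the 10-array fit). Its heat changes were 1.79 and 1.32 in the Ws pairs and 1.01 in Col-0 replicate 1. AT4G29530 itself had 69.0 and 51.8 at control and 156.6 and 132.1 after heat in QK, and its wild-type changes of 0.36, 0.34 and 0.40 were close to the limit. Of 24 next neighbours of members with a single-gene probe set, AT4G29520 was the single one with a change of at least 1 in both QK pairs, against 1.08% of all 10304, and 0 were members. The median mean QK change of the 24 was 0.13. The members lie on all nuclear chromosomes, with 5 on chromosome 1, 4 on chromosome 2, 9 on chromosome 3, 8 on chromosome 4 and 9 on chromosome 5, next to 26.3%, 15.1%, 20.4%, 14.6% and 23.5% of all single-gene probe sets.

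The wild-type arrays give a frame for levels that needs no treatment label. In 31 of the 35 members both heated QK arrays were brighter than all 10 other arrays, as they were in 5% of all 10304 probe sets, and the exceptions were AT5G15950, BHLH101, AT3G53040 and WAG2. Since the rule used these arrays, nothing is read from that share. At control both QK arrays lay within the range of the 8 wild-type arrays in 14 of 35 members, beside 53.4% of all probe sets. They were brighter than all 8 in 4 members (AT3G19920, LEA, AT1G76600 and AT3G53040), beside 5.26% of all probe sets, and dimmer than all 8 in 0 members, beside 5.21%. The control arrays entered the rule too, and a low control favours a member, so these counts are descriptions. The median log2 difference of QK from Ws at control was 0.21 over the members and -0.01 over all probe sets.

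**Figure D4:**
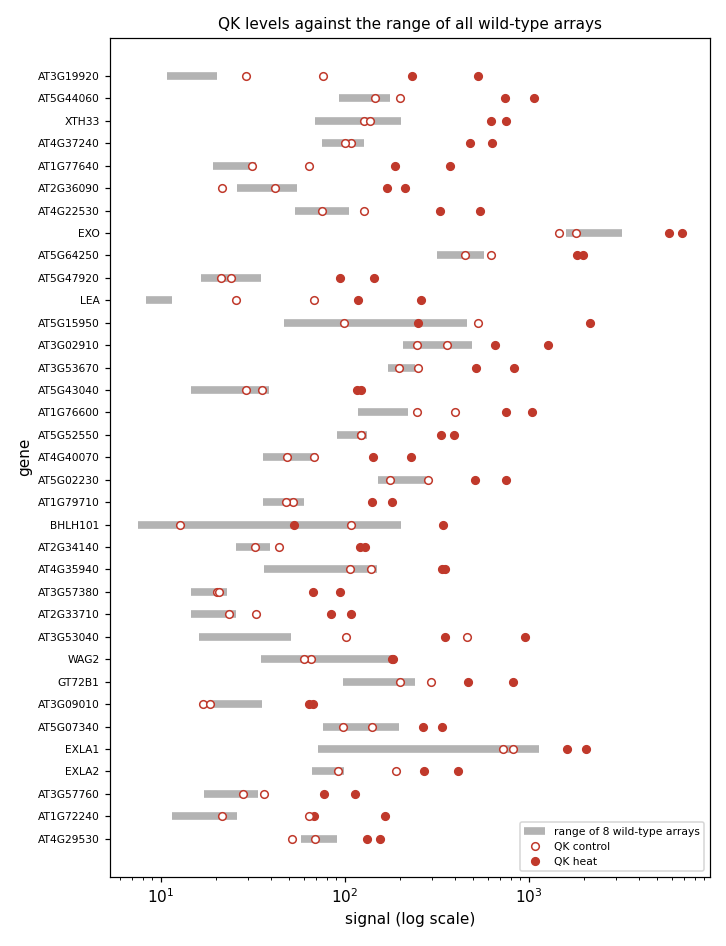
Signal (log axis) of each member in the QK control arrays (open) and heated QK arrays (filled), over the range of the 8 wild-type arrays (grey bar). The heated points lie to the right of the bar in 32 of 35 members, and the control points lie mostly on it.

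Whether a gene picked in 1 replicate keeps its pattern in the other can be read from arrays that the pick did not use. From replicate 1 alone (QK at least 1, Ws and Col-0 under 0.5) 103 genes were picked. In replicate 2, 35 of these, or 34.0%, again had a QK change of at least 1 and a Ws change under 0.5. Over all 10304 probe sets the share was 0.951%. These 35 are the members by definition, since the rule used both replicates, so the share is no support for them. The median QK change of the 103 in replicate 2 was 0.71, beside 0.02 over all probe sets, and 91 of the 103 were above 0. Picked from replicate 2 with QK and Ws alone, 98 genes were found, of which 38 (38.8%) met the same numbers in replicate 1, beside 1.06% of all. Most genes picked from 1 replicate thus did not meet the same numbers in the other.

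**Figure D5:**
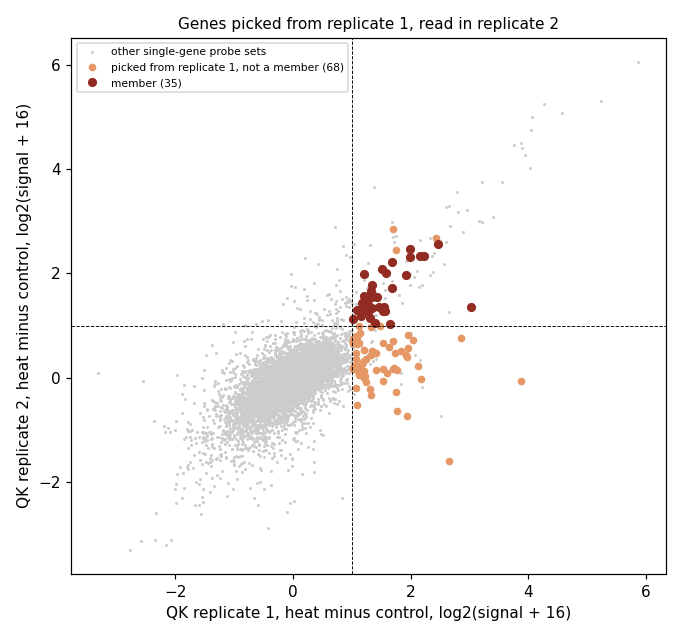
Heat change of single-gene probe sets in QK replicate 1 (horizontal) and QK replicate 2 (vertical), in log2(signal + 16), with dashed lines at 1. Of 103 genes picked from replicate 1 the 35 members (dark) lie above the horizontal line, and most of the other 68 (orange) lie between 0 and 1.

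The pair labelled Col-0 replicate 2 is the other set of arrays outside the rule. As labelled, the heat change of the members was between -0.51 and 0.90 with a median of 0.04, and 28 of 35 (80%) lay within 0.5 in either direction. Over all single-gene probe sets 82.2% did so, close to the members' share. None of the 35 reached 1 in either direction in that pair, and 220 of the 10304 probe sets were at 1 or more. EXLA1 (0.90), WAG2 (0.89), AT5G15950 (0.88), AT1G76600 (0.82), AT4G35940 (0.78) and AT5G44060 (0.72) were brighter by 0.5 or more in the array labelled heat. In these 6 the change in Col-0 replicate 1 was below 0. Of all 10304 probe sets 1185 were at 0.5 or more. AT4G40070 (-0.51) was the 1 member at -0.5 or less, beside 651 of all probe sets. Across the 35 members the changes of the Col-0 pairs had a correlation of -0.77, beside -0.86 over all probe sets.

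Since QK descends from both accessions, levels of the members were compared between Ws and Col-0 as means over both temperatures. The estimate of this contrast uses no heat change and does not depend on which array of a Col-0 pair was heated. Its standard error and p do depend on those labels, since the fit takes its spread from arrays of the same group. Over all 13631 probe sets, 921 had an unadjusted limma p under 0.05 with 12 arrays and 1375 with 10. Of 35 members limma called 0 in the fit to 12 arrays, beside 0.528% of 13631 probe sets called, and 2 members had an unadjusted p under 0.05. The 10-array fit also called 0 by limma, beside 0.558% of all, with 3 at an unadjusted p under 0.05. That fit sets both Ws replicates against Col-0 replicate 1 alone, so accession and replicate cannot be told apart in it. The differences of BHLH101, AT5G15950 and EXLA1 were 0.31, 0.83 and -0.26 with 12 arrays. With 10 arrays they were 1.51, 1.73 and -1.66. With 12 arrays the lowest adjusted p belonged to AT5G43040, which was at 16.3 ± 1.15 in Ws and 31.5 ± 6.35 in Col-0 (SD, n = 4 arrays each). It differed by -0.55 (SE 0.13, limma adjusted p = 0.184). XTH33 followed with 138 ± 44.3 in Ws and 84.6 ± 18.4 in Col-0, a difference of 0.59 (SE 0.22, limma adjusted p = 0.526). The Ws and Col-0 arrays did not overlap in AT5G43040, nor in AT3G53670 (216.5 to 241.2 in Ws, 172.2 to 205.6 in Col-0). The share without overlap over all probe sets was not counted. A missed threshold does not show equal levels. BHLH101, AT5G15950 and EXLA1 had standard errors of 1.09, 0.92 and 0.82 in this contrast, which are wide beside a 2-fold difference.

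JAL33, a lectin among the root markers that was singled out after its values were seen, bears on the same comparison. Its 4 Ws arrays lay between 33.0 and 44.6 and its 4 Col-0 arrays between 1026.3 and 1503.3, without overlap, and the difference of -4.51 (SE 0.87) had a limma adjusted p of 0.0847, which did not pass. In QK it had 45.2 at control and 878.9 after heat in replicate 1, and 1759.8 and 1678.6 in replicate 2, a heat change of 3.87 and -0.07. Whether arrays of QK differ in this way in the members was not tested.

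All 35 members passed the filter on dim probe sets, which a gene can pass through the heated QK arrays alone. In the 12-array fit limma called 10 of 35 members raised by heat in QK (0.249% of 13631 probe sets), with 31 at an unadjusted p under 0.05, and in the 10-array fit 20 of 35 (1.17%). For the heat change of QK less the average of the Ws and Col-0 heat changes limma called 0 of 35 members with 12 arrays (0.00734% of all), with 30 at an unadjusted p under 0.05. With 10 arrays it called 6 (0.154% of all), namely AT5G44060, XTH33, AT4G37240, AT5G43040, AT1G79710 and AT4G35940. For heat in Ws limma called 0 of 35 members raised with 12 arrays (0.0587% of all), with 1 at an unadjusted p under 0.05, and 0 with 10 arrays (3.46%), with 2. For heat in Col-0 it called 0 with 12 arrays (0% of all), with 0 at an unadjusted p under 0.05, and 0 with 10 arrays (1.59%), with 1. The 12-array counts for Col-0 and for the QK response average 2 Col-0 pairs of opposite direction, so they cannot show a Col-0 heat change. The rule used these contrasts, and nothing is read from the counts.

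The thresholds set the edge of the group. Just inside the QK limit were AT4G29530 with a lower QK change of 1.02, AT3G53040 with 1.03 and EXLA2 with 1.05, and just outside were LCR67 with 0.996, AT3G09480 with 0.993 and AT3G19200 with 0.988. Just inside the wild-type limit were AT4G40070 with 0.49, AT4G22530 with 0.48 and AT5G44060 with 0.47, and just outside were AT1G36060 with 0.52, AT1G49210 with 0.53 and AT5G52050 with 0.55. AT1G36060 had QK changes of 2.59 and 2.61, above every member's mean. With the same limits turned downward 2 genes were found, AT3G09570 and AT3G05640, named after their values were seen. With Ws in the place of QK 13 genes met the rule. The 27 probe sets with no listed gene had mean QK changes between 1.13 and 2.67, with a median of 1.49.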

How the data were processed

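RNA of 12 seedling samples was hybridised to Affymetrix arrays, 1 channel each. The deposited table holds 1 linear intensity per probe set and array. Per the submitters' processing notes the authors used GCOS 1.4, and further steps are not given in the sources used here. Log2 values were taken after adding 16. Probe sets were named from the platform annotation and matched to TAIR10.1 for names and gene order only (10340 of 10396 single-gene probe sets matched). Group and replicate came from the labels, which call the replicates biological.

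Tests used limma 3.58.1 in R 4.3.3 (1 mean per group, eBayes with trend, Benjamini-Hochberg adjustment) over 13631 probe sets above the 35th percentile of their array in at least 2 arrays. A call needed an adjusted p under 0.05 and a 2-fold change. Fits used 12 arrays, or 10 that leave out both arrays labelled Col-0 replicate 2. The fit was tested on simulated data. The members and gene lists were chosen with earlier results of these data known. Full values were given for the 12 members with the highest mean QK change and those on a list. Those for other members with a symbol, the families of expansins and UGT72 genes, AT4G35940, AT3G53040 and JAL33 were chosen after their values were seen. Listed leaf, jasmonate, oxidative stress, cold and other heat factor genes, and promoter motifs, were not analysed here. Lists of auxin, dehydration, touch and calcium, and mitochondrial stress genes had 3, 2, 2 and 4 genes with a single-gene probe set. Of these 0 were members. In the 10-array fit limma called 1 of them raised by heat in QK, the auxin gene GH3.3, beside 1.17% of all tested probe sets. Alternatives changed the value added, scaling, filter, thresholds, arrays and replicate block.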

Additional observations from a re-analysis of the deposited data

Results flagged for a closer look

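In 7 members every wild-type pair used had a heat change below 0 while both QK pairs were at 1 or more, so that the signs differed between QK and Ws in each pair. Some of the Ws changes were close to 0, such as -0.03 for AT5G02230 in replicate 2 and -0.10 for AT1G72240 in replicate 1. In Col-0 replicate 1 the change of AT5G15950 was -0.0046, so its sign there carries no weight. The difference between the mean QK change and the mean Ws change was 2.24 for WAG2, 2.17 for AT4G35940, 2.003 for GT72B1, 1.92 for AT5G15950, 1.85 for AT3G02910, 1.57 for AT5G02230 and 1.36 for AT1G72240, in log2(signal + 16). The rule that chose the members used these values, and the difference was not tested. In Ws replicates 1 and 2 and Col-0 replicate 1, 17, 15 and 21 of the 35 members had a change below 0. Over all 10304 probe sets 5301, 5206 and 5606 did so. The number of all probe sets below 0 in every wild-type pair used was not counted. As labelled, the pair Col-0 replicate 2 had a change above 0 in all 7, from 0.16 in AT5G02230 to 0.89 in WAG2.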

How the results depend on the processing

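The number of genes meeting the rule was 35 and stayed within 1.5 times of that under 5 alternatives. It was 22 with 64 added to the signal in place of 16, 10 with a QK threshold of 1.5, 66 over all probe sets, and between 98 and 103 from 1 replicate alone. Of the members 13 met the rule under all 5 scales tried and 22 were lost under at least 1. The held-out share and the count for Col-0 replicate 2 kept within their limits under 3 alternatives each. In 31 members the heated QK arrays were also brightest without the pair labelled Col-0 replicate 2 and after quantile normalization, both added after seeing the data.

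For Ws against Col-0, 0 members were called by limma under any of 22 alternatives. The probe sets called, 72 as reported, were 44 with 64 added and 27 to 62 when 1 array was left out. The fewest, 27, came without Ws heat replicate 1. The counts of members called for heat in QK, 10 as reported, were 20 with 10 arrays, 1 with 1 added, 3 with a 50th percentile filter and 0 to 5 when 1 array was left out, QK and Ws arrays giving 0. For the QK response, 0 as reported, they were 6 with 10 arrays, 1 with 64 added and 0 to 0 when 1 array was left out. The cause was not tested.

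Deviations of same-numbered samples correlated above 0.1 in 14 of 15 pairs of groups, where they lay between 0.349 and 0.794. The exception, -0.168, was between the Col-0 groups, which hold the pair that stands against its labels. Since 1 pair of groups fell short, the replicate number was left out of the tests as reported, and the block raised the counts of members called on the heat contrasts. With the replicate block, 128 probe sets and 0 members were called for Ws against Col-0, 19 members for heat in QK and 1 for the QK response. With 10 arrays and the replicate block these last counts were 31 and 18. Precision is limited by 2 arrays per group and by dim signals.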
